A study of Mus musculus with 6 samples.

Results

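The genes described here are 45 components of the DNA replication machinery, chosen by symbol from known roles in origin licensing, DNA unwinding, DNA synthesis, nucleotide supply and chromatin assembly. All 45 were found among the 31771 gene identifiers of the count table, and all 45 passed the filter on low counts. RNA came from frozen spleen pieces of 6 mice labelled as strain C57BL/6, sequenced to compare the cellular make-up of mutant and control organs. The 3 mutant animals carried Cre recombinase under the VE-cadherin promoter (VEC-Cre) together with the transposase of the Sleeping Beauty system (SB Transposase) and its onc2 transposon, and the 3 control animals were labelled wild type (WT). Cre under the VE-cadherin promoter acts in endothelium and in blood cells that descend from it, and spleen pieces hold both. The labels used here give no age, litter or batch. Levels are in CPM, which scales every library to the same total, with libraries numbered by animal as mutant 1 to 3 and control 1 to 3.

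DNA replication starts at origins that the origin recognition complex marks and that Cdc6 and Cdt1 load with the Mcm helicase before S phase. Cdc45 and the GINS complex then turn the loaded helicase on, polymerase alpha with primase makes short primers, and polymerases epsilon and delta extend them with the help of the sliding clamp PCNA. Many of these genes are transcribed in late G1 and S phase under control of E2F transcription factors, so their RNA is abundant in tissue that holds many dividing cells, such as a spleen that makes red cells.

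Promoter sequences are shown for the 8 members in which E2F-type letters lay before the annotated start. RefSeq promoters (GRCm38.p6, 250 bases before to 50 after each start) were matched for 37 of the 45 members. The letters searched were TTTCGCGC, TTTGGCGC, TTTCCCGC and TTTGCCGC, on both strands, and matches that overlap each other were counted separately. At least 1 match was present in 14 of the 37 members (37.8%), against 704 of 27025 genes of all kinds with a promoter entry (2.60%). The stretches below run 5′ to 3′ on the gene's strand, with the matched letters in capitals, and where the stretch lies inside the GENCODE gene model at most 30 bases are given. Mcm6 (chr1:128359719-128359841, minus strand) held 3 matches, of which a pair overlaps, and Mcm5 (chr8:75109330-75109393, plus strand) held an overlapping pair. Pola1 (chrX:93632260-93632319, minus strand), Mcm7 (chr5:138172030-138172059, minus strand), Cdc6 (chr11:98908002-98908031, plus strand), Orc1 (chr4:108579416-108579445, plus strand), Gins3 (chr8:95633507-95633536, plus strand) and Rfc3 (chr5:151651209-151651229, minus strand) each held 1 within the stretch shown.
Mcm6: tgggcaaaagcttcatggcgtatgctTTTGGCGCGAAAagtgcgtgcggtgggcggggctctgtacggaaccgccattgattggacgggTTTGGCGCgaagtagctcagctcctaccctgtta
Mcm5: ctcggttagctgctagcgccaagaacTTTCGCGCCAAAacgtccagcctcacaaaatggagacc
Pola1: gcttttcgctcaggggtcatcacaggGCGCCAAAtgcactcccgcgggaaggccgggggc
Mcm7: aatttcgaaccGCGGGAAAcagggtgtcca
Cdc6: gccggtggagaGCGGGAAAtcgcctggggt
Orc1: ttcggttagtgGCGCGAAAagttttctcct
Gins3: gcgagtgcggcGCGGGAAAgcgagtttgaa
Rfc3: acgtcgcacgcTTTCGCGCtc

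Libraries held 72902118 to 79258116 counts. The labelled tissue was checked by lymphocyte genes: 10 B-cell markers summed to 6333 to 7088 CPM in controls and to 49.4 to 109 CPM in mutants, so the mutant pieces nearly lacked transcripts that define much of a normal spleen. Xist stood at 1510 and 580 CPM in mutants 1 and 2 and at 0.423 to 0.663 CPM in mutant 3 and the controls. The Y-linked Ddx3y stood at 0.0412 and 0.0269 CPM in mutants 1 and 2 and at 55.0 to 62.7 CPM in mutant 3 and the controls. By these transcripts mutants 1 and 2 were female, and mutant 3 and all controls were male. Sex is thus partly confounded with genotype, and the contrast of mutant and control cannot fully tell them apart. The biological coefficient of variation was 72.8% among mutants and 17.1% among controls. In whole tissue, more dividing cells and more RNA of a gene per cell cannot be told apart.

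Replication genes were higher in the mutant spleens, and each of the 10 roles described below held at least 1 gene that rose, in single-strand binding Rpa2 alone, whose call depended on the setting. Of the 45 members, 32 rose and 0 fell by the quasi-likelihood test of edgeR (Benjamini-Hochberg adjusted p under 0.05 over all 19573 genes tested), where 5.08% of genes rose and 6.90% fell. At an unadjusted p under 0.05 by edgeR, 39 members were higher and 0 lower, against 3169 and 2945 of all 19573 genes tested. DESeq2 and limma-voom also called 0 members lower. All 45 fitted log2 fold changes of mutant over control were above 0, from 0.11 to 2.37, with a median of 1.45 against 0.10 for all genes tested. In 42 members every mutant library lay above every control library, against 18.0% of all genes, and in 0 members every mutant lay below, against 22.6%. The 3 whose libraries overlapped were Pold1, Rfc1 and Rfc2. Summed over the 45 members the level was 5336, 5420 and 4908 CPM in mutants 1, 2 and 3 and 2422, 2395 and 1963 CPM in controls 1, 2 and 3. As a share of all counts that is 0.522 ± 0.0275% against 0.226 ± 0.0257% (SD, n = 3, 2-sided exact permutation p = 0.1, which is the least this design can give).

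The edgeR calls depended on having all 3 controls. Without control 1, 2 or 3 the members called higher numbered 0, 0 and 1 (Tyms), against 0.0294%, 0.0195% and 0.0392% of all genes. At an unadjusted p under 0.05 by edgeR, 35, 36 and 34 members were higher. That count was not made over all genes in these reductions, so it cannot tell the members from genes at large. DESeq2 called 32, 35 and 31 members higher in the same 3 reductions, against 7.83%, 7.79% and 7.09% of all genes. With a mutant left out by edgeR, Mcm4, Pold2, Pcna, Rfc4, Rpa2 and Dut no longer passed without mutant 3, and Mcm4 did not pass without mutant 2 either. Cdc6 passed without mutant 1 or 2, Rfc3 without mutant 2 or 3, Fen1 and Slbp without mutant 1, and Rpa3 without mutant 2.

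**Figure D1:**
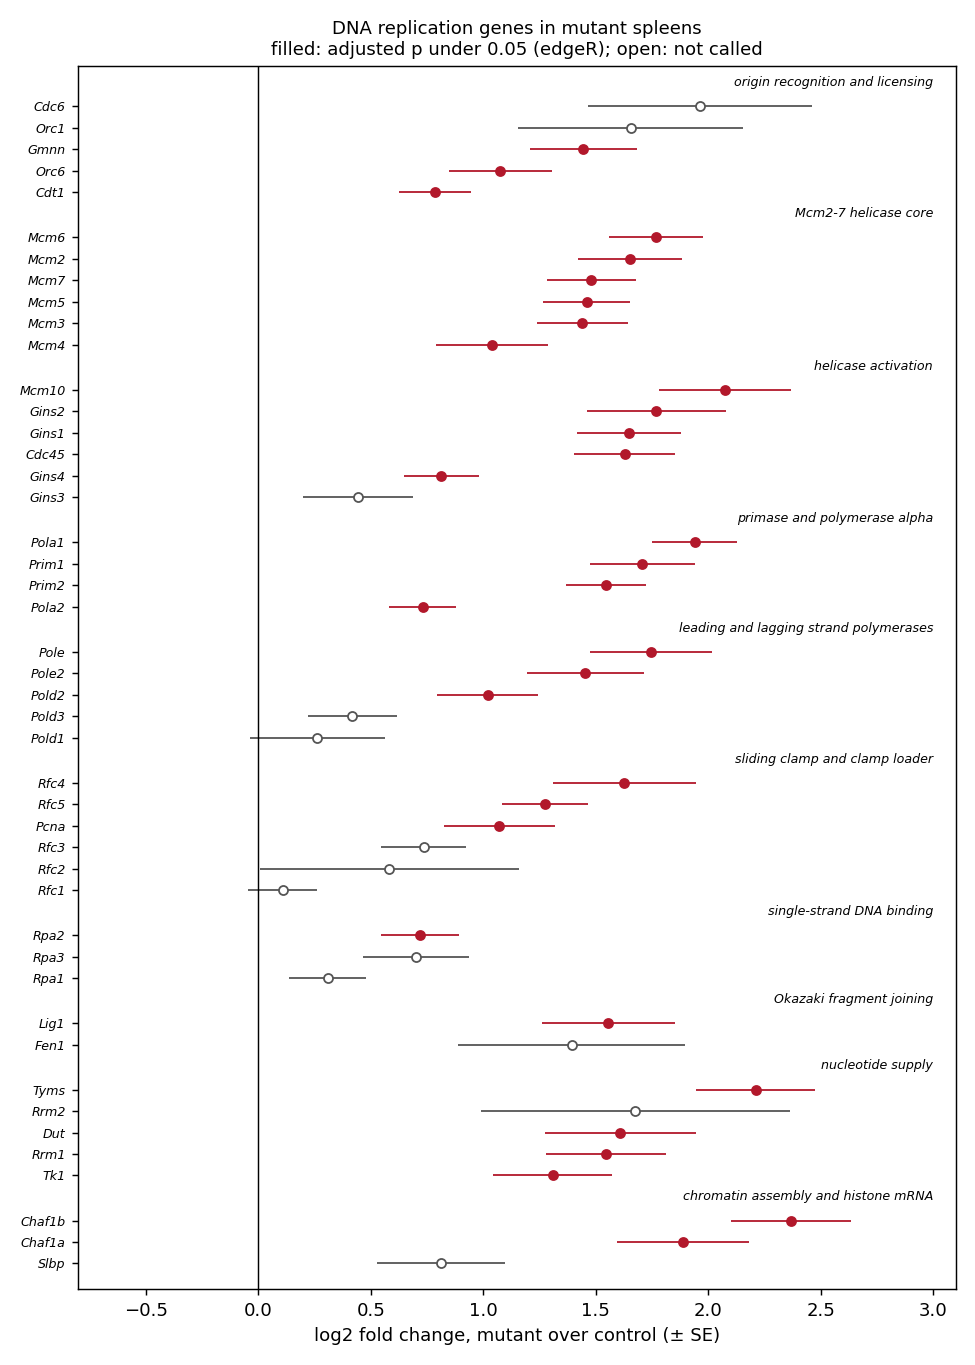
Fitted log2 fold change of mutant over control (x axis, ± SE, 3 mutants and 3 controls) for each of the 45 replication genes, grouped by role (y axis). Filled points passed an adjusted p of 0.05 by edgeR and open points did not; all points lie above 0, from 0.11 for Rfc1 to 2.37 for Chaf1b.

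Of the 5 genes of origin recognition and licensing, 3 rose (median log2 fold change 1.45). Gmnn, which encodes geminin, the inhibitor of Cdt1, was at 73.9, 81.0 and 59.9 CPM in mutants 1, 2 and 3 and at 28.2, 29.8 and 21.7 CPM in controls 1, 2 and 3 (log2 1.44 ± 0.24, adjusted p = 0.0191 by edgeR). The groups were well apart, with the lowest mutant above every control. Cdt1, which loads the helicase onto origins, was at 119, 128 and 119 CPM in mutants and 71.3, 76.1 and 67.0 CPM in controls (log2 0.78 ± 0.16, adjusted p = 0.0313 by edgeR). Orc6, a small subunit of the origin recognition complex, rose as well (log2 1.07 ± 0.23, adjusted p = 0.0349 by edgeR). Its largest subunit Orc1 was at 10.8, 23.9 and 9.71 CPM in mutants and 5.28, 5.74 and 3.34 CPM in controls, with mutant 2 far above the other mutants, and did not pass (log2 1.66 ± 0.50, adjusted p = 0.0831 by edgeR, and log2 1.06 without mutant 2). Cdc6, the loading factor, had the same shape, at 39.9, 117 and 65.4 CPM in mutants and 23.8, 21.7 and 12.6 CPM in controls (adjusted p = 0.0546 by edgeR).

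All 6 subunits of the Mcm2-7 helicase core rose, with a median log2 fold change of 1.47. Mcm6 (ENSMUSG00000026355, GRCm38 chromosome 1, 128331590 to 128359664), whose promoter held 3 E2F-type matches, was at 395, 300.0 and 327 CPM in mutants 1, 2 and 3 and 109, 108 and 83.2 CPM in controls (log2 1.77 ± 0.21, adjusted p = 0.00909 by edgeR). Mcm7 was at 331, 321 and 320.1 CPM in mutants and 124, 129 and 96.6 CPM in controls (log2 1.48 ± 0.20, adjusted p = 0.0118 by edgeR). The 3 mutant animals thus had almost the same Mcm7 level. Mcm2 was at 220.3, 289.8 and 253 CPM in mutants and 93.1, 84.8 and 67.0 CPM in controls (log2 1.65 ± 0.23). Mcm3 was at 310.4, 250.1 and 239.9 CPM against 106, 106 and 84.4 CPM (log2 1.44 ± 0.20). Mcm5 was at 219, 213 and 246 CPM against 89.0, 90.7 and 67.5 CPM (log2 1.46 ± 0.19). For each of these genes the lowest mutant lay above the highest control. Mcm4 showed the smallest change of the 6, at 105, 155 and 173 CPM in mutants and 76.7, 74.8 and 60.4 CPM in controls (log2 1.04 ± 0.25, adjusted p = 0.0478 by edgeR). Its call was lost under upper-quartile scaling (adjusted p = 0.0547 by edgeR) and with no filter on low counts (adjusted p = 0.0546 by edgeR).

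The subunits work as a ring with 1 copy of each, so their levels were also compared per kilobase of exon. Averaged over the 6 subunits the level was 77.0, 75.1 and 76.1 CPM per kb in mutants 1, 2 and 3, and 29.4, 29.2 and 22.6 CPM per kb in controls 1, 2 and 3. Mcm7 was the highest subunit and Mcm4 the lowest in all 6 libraries. The highest subunit exceeded the lowest 1.97, 2.09 and 1.94 times in controls 1, 2 and 3, and 3.84, 2.51 and 2.24 times in mutants 1, 2 and 3. Mutant 1, with Mcm4 at 29.2 CPM per kb, had the most uneven set.

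**Figure D2:**
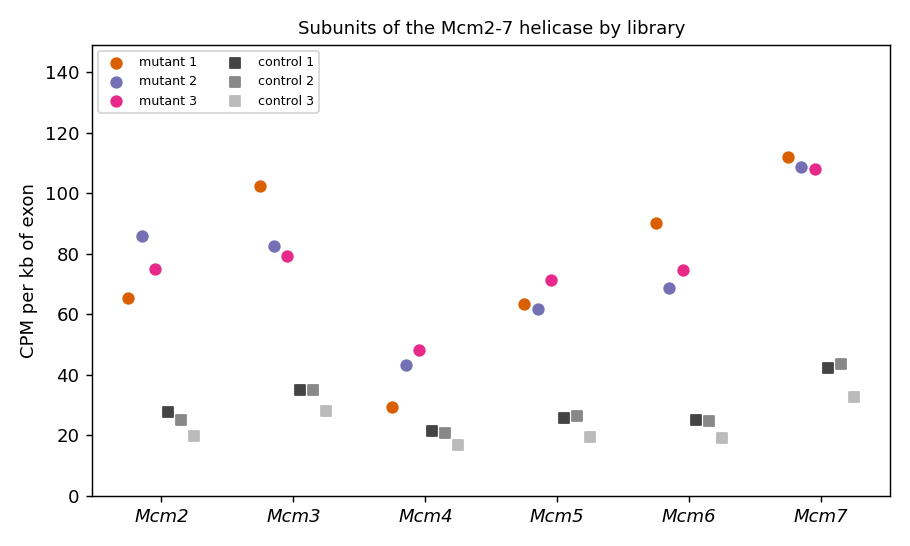
CPM per kb of exon (y axis) of the 6 subunits of the Mcm2-7 helicase (x axis) in each mutant (circles) and control (squares). Every mutant point lies above every control point of the same gene, and Mcm4 in mutant 1, at 29.2 CPM per kb, comes closest to the controls.

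The factors that switch the loaded helicase on rose in 5 of 6 cases. Mcm10, which helps to start the helicase, was at 58.9, 60.1 and 56.4 CPM in mutants and 15.6, 16.9 and 9.17 CPM in controls (log2 2.08 ± 0.29, adjusted p = 0.0138 by edgeR). Cdc45, which binds the helicase as it is activated, was at 45.5, 45.2 and 43.7 CPM against 16.8, 15.4 and 11.4 CPM (log2 1.63 ± 0.23, adjusted p = 0.0133 by edgeR). For both genes the mutants were closer to each other than the controls were, with coefficients of variation of 3.20% and 2.19% in mutants and 29.8% and 19.2% in controls. The GINS complex joins the helicase as a unit of 4 proteins, and its genes moved by different amounts. Gins1 was at 29.6, 27.7 and 23.4 CPM in mutants and 9.72, 8.44 and 7.76 CPM in controls (log2 1.65 ± 0.23, adjusted p = 0.0134 by edgeR). Gins2 and Gins4 rose by log2 1.77 ± 0.31 and 0.81 ± 0.17. Gins3 was at 11.6, 13.8 and 15.4 CPM against 10.6, 10.3 and 9.31 CPM and did not pass (log2 0.44 ± 0.24, adjusted p = 0.270 by edgeR), although its promoter held an E2F-type match.

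All 4 genes of primase and polymerase alpha, which lay down the primers, rose. Pola1, the catalytic subunit of polymerase alpha (ENSMUSG00000006678, chromosome X, 93304767 to 93632155), had the smallest p of all members. It was at 51.2, 42.8 and 57.7 CPM in mutants 1, 2 and 3 and at 13.6, 14.1 and 11.9 CPM in controls (log2 1.94 ± 0.19, adjusted p = 0.00598 by edgeR). Pola1 is X-linked, and its highest level was in mutant 3, the mutant with almost no Xist. The part of sex in its level was not tested. Prim2, the large primase subunit, was at 60.2, 51.2 and 51.4 CPM against 18.5, 20.2 and 17.3 CPM (log2 1.55 ± 0.18, adjusted p = 0.00864 by edgeR). Prim1, the primase that makes the RNA primer, rose by log2 1.71 ± 0.23. Pola2, the regulatory subunit of polymerase alpha, changed less, at 87.6, 86.1 and 89.3 CPM in mutants and 55.8, 53.8 and 49.9 CPM in controls (log2 0.73 ± 0.15, adjusted p = 0.0307 by edgeR).

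Of the polymerase epsilon and delta genes 3 of 5 rose. Pole, the catalytic subunit of the leading-strand polymerase, was at 83.5, 48.9 and 72.9 CPM in mutants and 24.5, 20.4 and 15.9 CPM in controls (log2 1.75 ± 0.27, adjusted p = 0.0167 by edgeR). Its partner Pole2 was at 25.2, 22.9 and 38.5 CPM against 12.1, 9.91 and 9.60 CPM (log2 1.45 ± 0.26, adjusted p = 0.0234 by edgeR). Mutant 2 was the lowest mutant for both genes. Of the 3 members of polymerase delta, which copies the lagging strand, the accessory subunit Pold2 passed (log2 1.02 ± 0.22, adjusted p = 0.0374 by edgeR), while Pold3 did not (log2 0.42 ± 0.20, adjusted p = 0.206 by edgeR). The catalytic subunit Pold1 was at 183, 79.9 and 161 CPM in mutants and 106, 132 and 114 CPM in controls. Mutant 2 thus lay below all controls and the other mutants above them (log2 0.26 ± 0.30, adjusted p = 0.592 by edgeR, and log2 0.52 with adjusted p = 0.0599 without mutant 2).

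The sliding clamp gene Pcna rose, at 199, 308 and 249 CPM in mutants and 131, 128 and 106 CPM in controls (log2 1.07 ± 0.25, adjusted p = 0.0431 by edgeR). Its value is uncertain, since the related row Pcna-ps2 held 2639, 4205 and 2944 counts in mutants and 837, 847 and 704 counts in controls. The clamp is loaded by a complex of Rfc1 with 4 smaller subunits, and this complex did not move as a unit. Rfc4 was at 16.2, 22.4 and 25.4 CPM against 8.48, 7.11 and 5.19 CPM (log2 1.63 ± 0.32, adjusted p = 0.0285 by edgeR). Rfc5 was at 76.5, 50.1 and 74.2 CPM against 28.5, 26.5 and 28.2 CPM (log2 1.27 ± 0.19, adjusted p = 0.0155 by edgeR). Rfc3 had log2 0.74 ± 0.19 (adjusted p = 0.0551 by edgeR). Rfc1, the large subunit (chromosome 5, 65261850 to 65335670), had the smallest fold change of the 45, at 99.3, 73.9 and 87.0 CPM in mutants and 77.7, 81.3 and 83.2 CPM in controls (log2 0.11 ± 0.15, adjusted p = 0.664 by edgeR).

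The fitted change of Rfc2 rested on 1 animal. Rfc2, a small subunit of the loader, stood at 458 CPM in mutant 1 but at 115 and 110.4 CPM in mutants 2 and 3, below the 157, 148 and 150 CPM of the controls (log2 0.58 ± 0.58, adjusted p = 0.531 by edgeR). Without mutant 1 the fitted change turned to log2 -0.39 (adjusted p = 0.108 by edgeR). With mutant 3 alone against the controls it was log2 -0.50, a value given with no p because the spread in that comparison comes from the controls alone, which varied less than the mutants. The gene Lat2 covers 19.1% of the exon bases of Rfc2 on the opposite strand and was at 114, 39.8 and 2.65 CPM in mutants and 57.2 to 65.9 CPM in controls. Its part in the Rfc2 counts was not tested.

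Of the 3 genes of single-stranded DNA binding 1 rose (median log2 fold change 0.70), and of the 2 of fragment joining 1 rose (median 1.48). Rpa2, the middle subunit of the protein that coats unwound DNA, was at 95.4, 92.0 and 89.1 CPM in mutants and 59.2, 61.1 and 48.6 CPM in controls (log2 0.72 ± 0.17, adjusted p = 0.0479 by edgeR). Its call was lost under upper-quartile scaling (adjusted p = 0.071 by edgeR), with no filter on low counts (0.0721), with haemoglobin and immunoglobulin genes left out (0.052), by limma-voom with sample weights (0.145) or separate group variances (0.212), and without mutant 3 (0.0592) or any 1 control (0.159 to 0.216). Rpa3 was at 51.0, 29.5 and 38.8 CPM against 24.8, 26.7 and 21.9 CPM (log2 0.70 ± 0.24, adjusted p = 0.105 by edgeR). Rpa1, the large subunit, was at 147, 172 and 158 CPM against 131, 135 and 122 CPM, apart in every library but by little (log2 0.31 ± 0.17, adjusted p = 0.265 by edgeR). Lig1, the ligase that seals lagging-strand fragments, was at 193, 256 and 183 CPM against 82.8, 82.6 and 51.4 CPM (log2 1.56 ± 0.29, adjusted p = 0.0269 by edgeR). Fen1, the nuclease that trims those fragments, was counted at only 1.33, 2.89 and 3.60 CPM in mutants and 1.12, 1.13 and 0.732 CPM in controls (log2 1.39 ± 0.50, adjusted p = 0.122 by edgeR). Of its exon bases 84.2% lie in exons of genes on the opposite strand, mainly Tmem258, which was at 41.7 ± 1.27 CPM in controls. The libraries were stranded per the labels' protocols. No source used here gives the strand setting of the counting or its handling of overlapping genes, so the level of Fen1 is uncertain. The same applies to Gins2, with 70.7% of its exon bases opposite Gse1 (87.4 ± 52.3 CPM in mutants and 26.9 ± 1.39 CPM in controls), and to Chaf1a, with 48.6% opposite Ubxn6 (65.3 ± 8.63 and 74.8 ± 1.76 CPM).

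Nucleotide supply rose in 4 of 5 genes. Tyms, the thymidylate synthase (ENSMUSG00000025747, chromosome 5, 30058202 to 30073617), was at 86.2, 81.8 and 90.1 CPM in mutants and 22.0, 20.9 and 12.8 CPM in controls (log2 2.21 ± 0.26, adjusted p = 0.00944 by edgeR). Rrm1, the large subunit of ribonucleotide reductase, was at 218, 339 and 260.0 CPM against 104, 101 and 77.5 CPM (log2 1.55 ± 0.27, adjusted p = 0.0219 by edgeR). Its S-phase partner Rrm2 was at 156, 583 and 137 CPM against 122, 103 and 57.3 CPM, with a single high mutant, and did not pass (log2 1.68 ± 0.69, adjusted p = 0.159 by edgeR, and log2 0.59 without mutant 2). Tk1, the thymidine kinase of nucleotide salvage, rose by log2 1.31 ± 0.26. Dut, which removes dUTP, rose by log2 1.61 ± 0.34 and was at 289, 115 and 182 CPM in mutants 1, 2 and 3. Mutant 2 was therefore the highest mutant for Rrm2 and the lowest for Dut.

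The largest change of all members was in chromatin assembly. Chaf1b, a subunit of the factor that places histones on new DNA (ENSMUSG00000022945, chromosome 16, 93883901 to 93906115), was at 100.3, 71.5 and 126 CPM in mutants and 20.8, 21.4 and 15.0 CPM in controls (log2 2.37 ± 0.27, adjusted p = 0.00841 by edgeR). Its partner Chaf1a was at 36.5, 46.0 and 59.1 CPM against 14.9, 14.0 and 9.39 CPM (log2 1.89 ± 0.29, adjusted p = 0.0167 by edgeR). Slbp, which binds histone mRNA, was at 78.3, 145 and 119 CPM against 71.2, 69.1 and 57.3 CPM and did not pass (log2 0.81 ± 0.29, adjusted p = 0.116 by edgeR).

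The replication genes varied less among the mutants than the median gene did. The median coefficient of variation over the members was 17.4% among mutants, against 44.2% over all genes tested, and 12.6% among controls, against 11.3%. The list median was 1.25, 1.48 and 1.33 (log2 over the control mean) in mutants 1, 2 and 3. No mutant led throughout, with 19 members highest in mutant 1, 14 in mutant 2 and 12 in mutant 3. Members that differed between mutants fell into a few shapes: Cdc6, Orc1 and Rrm2 were more than 1.5 times higher in mutant 2 than in either other mutant, Rfc2 and Dut likewise in mutant 1, and Pole2 in mutant 3. In the other direction, Cdc6, Fen1 and Slbp were more than 1.5 times lower in mutant 1 than in either other mutant, and Dut, Pold1 and Pold2 in mutant 2. Among controls, 39 of 45 members were lowest in control 3, against 25.1% of all genes tested. The 12 erythroid precursor markers were also lowest there, at a sum of 1597 CPM against 2851 and 2884 CPM in controls 1 and 2. So were the sums of the 16 mitosis genes, at 550.3 CPM against 994 and 885 CPM, and of the 8 granulocyte precursor markers, at 38.7 CPM against 69.3 and 46.2 CPM. Their part in the order of the controls was not tested.

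**Figure D3:**
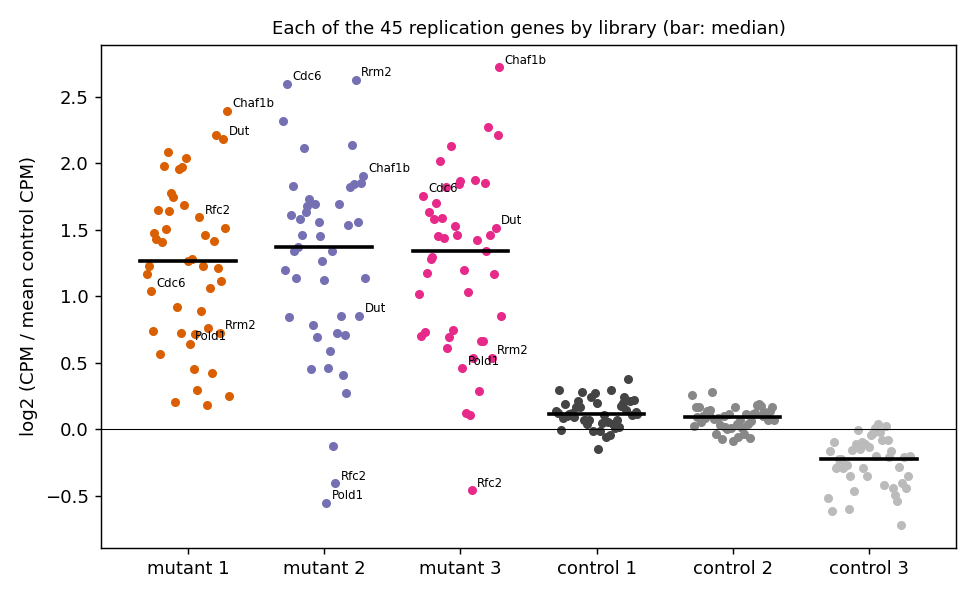
Log2 ratio of CPM to the mean control CPM (y axis) for the 45 replication genes in each of the 6 libraries (x axis), with 1 point per gene and a bar at the median. Most points of all 3 mutants lie above 0, Rfc2 lies below 0 in mutants 2 and 3, Pold1 and Rfc1 lie below 0 in mutant 2, and the median of control 3 is the lowest among the controls.

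The members' changes are given by whether the promoter held an E2F-type match, and the difference was not tested. The 14 members with a match had a median log2 fold change of 1.46, with 8 called higher, and the 23 with a promoter entry but no match had a median of 1.39, with 17 called higher. The remaining 8 members, without an entry, were Gmnn, Gins1, Gins2, Gins4, Mcm4, Pole, Prim2 and Rfc2.

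A wider list of 42 other replication genes behaved less uniformly, with 21 higher (5.08% of all genes were), 2 lower (6.90% of all genes were) and a median log2 fold change of 1.08. Ticrr, which helps Cdc45 onto origins, was at 24.7, 30.8 and 35.9 CPM in mutants and 7.24, 6.21 and 4.93 CPM in controls (log2 2.32 ± 0.27, adjusted p = 0.00907 by edgeR). Wdhd1, which tethers polymerase alpha to the helicase, was at 99.2, 67.2 and 80.1 CPM against 26.3, 24.6 and 19.1 CPM (log2 1.82 ± 0.22, adjusted p = 0.0101 by edgeR). Dna2, a nuclease of fragment processing, was at 49.5, 48.7 and 54.7 CPM against 21.1, 20.1 and 18.2 CPM (log2 1.37 ± 0.17, adjusted p = 0.0100 by edgeR). The 2 that fell, a smaller share than among all genes, were Pold4 and Rrm2b. Pold4, the smallest subunit of polymerase delta, was at 46.7, 48.0 and 37.6 CPM in mutants and 143, 146 and 162 CPM in controls (log2 -1.75 ± 0.18, adjusted p = 0.00720 by edgeR). Rrm2b, the small ribonucleotide reductase subunit that p53 induces and that resting cells use, was at 11.6, 13.4 and 15.3 CPM against 35.4, 35.9 and 39.9 CPM (log2 -1.46 ± 0.19, adjusted p = 0.0116 by edgeR). By edgeR 0 of the 42 passed without control 1, 2 or 3. At an unadjusted p under 0.05 by edgeR, 26, 24 and 23 were higher and 2 lower in each. That count was not made over all genes there, so it cannot tell these genes from genes at large. DESeq2 called 22, 23 and 21 higher in these reductions, against 7.83%, 7.79% and 7.09% of all genes. It called 2 lower in each, a direction not counted over all genes there.

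Partner genes were then compared within each library, in 6 pairs chosen after their values were seen. The log2 ratio of counts per kb of Pold4 to Pold2, both accessory subunits of polymerase delta, was -0.15 ± 0.57 in mutants and 2.61 ± 0.12 in controls (SD, n = 3). The ratio of Rrm2b to Rrm2, alternative small subunits of ribonucleotide reductase, was -5.18 ± 1.19 in mutants and -2.33 ± 0.67 in controls. Rfc1 can be replaced in the clamp loader by Chtf18, which serves sister chromatid cohesion, or by Atad5, which unloads the clamp, and both rose (log2 1.50 ± 0.22 and 1.60 ± 0.31, adjusted p = 0.0143 and 0.0288 by edgeR). Their ratios to Rfc1 went from -2.11 ± 0.19 to -0.71 ± 0.24 and from -2.95 ± 0.32 to -1.48 ± 0.58. The ratio of Gmnn to its target Cdt1 went from -0.56 ± 0.16 to 0.10 ± 0.18. In these 5 pairs the groups did not overlap. The exact 2-sided permutation p was 0.1 for each, the smallest possible, and 0.12 after Benjamini-Hochberg adjustment over the 6 pairs. Since the pairs were picked on these values, the p is no evidence that the ratios differ. For Pold4 over Pold2 and Rrm2b over Rrm2 the separation was fixed beforehand. Pold4 and Rrm2b lay below every control in all mutants, and Pold2 and Rrm2 lay above. The ratio of Dut to Rrm2 ranged from -2.32 to 0.91 among mutants and did not separate the groups (exact permutation p = 0.9).

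**Figure D4:**
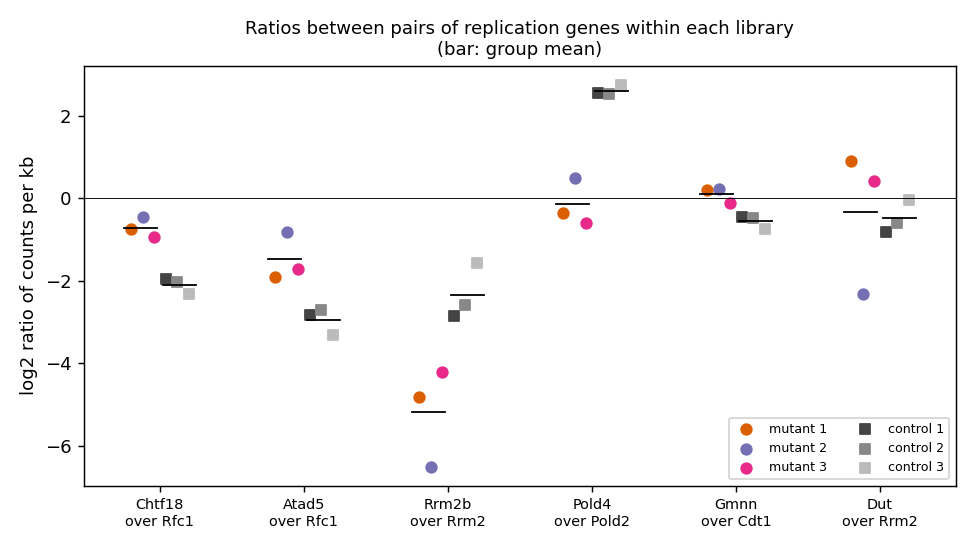
Log2 ratio of counts per kb (y axis) for 6 pairs of replication genes (x axis) in each mutant (circles) and control (squares), with bars at the group means. The widest gaps are for Rrm2b over Rrm2, with group means of -5.18 and -2.33, and for Pold4 over Pold2, with -0.15 and 2.61, and Dut over Rrm2 overlaps.

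Other lists show what else moved with the replication genes. The counts below stand against 5.08% of all genes that rose and 6.90% that fell. In a list of 16 mitosis genes 10 rose, with Bub1b, a spindle checkpoint kinase, having the smallest p (log2 1.94 ± 0.23, adjusted p = 0.00907 by edgeR). Their medians were 1.36, 2.29 and 1.79 in mutants 1, 2 and 3, so mutant 2 led there by more than in the replication genes. Of 12 erythroid precursor markers 3 rose, among them Tal1, a transcription factor of early erythroid cells (log2 3.09 ± 0.40, adjusted p = 0.0117 by edgeR), and the list summed to 1517, 8568 and 5391 CPM in mutants and 1597 to 2884 CPM in controls. Of 8 granulocyte precursor markers 5 rose, among them the granule protease gene Ctsg (log2 4.05 ± 0.45, adjusted p = 0.00841 by edgeR). The other 3 did not pass. Elane and Fcnb overlapped the controls, and Gfi1 lay below every control, at 0.60, 7.77 and 4.57 CPM in mutants and 10.9 to 13.0 CPM in controls. The sums of the 8 markers were 583, 372 and 406 CPM against 38.7 to 69.3 CPM. Prtn3 alone gave 416 CPM of the sum in mutant 1. Of 10 stem and progenitor markers the 1 that passed was Mecom, a regulator of stem cells, which fell (log2 -1.74 ± 0.38, adjusted p = 0.0378 by edgeR). Their sums of 2378, 195 and 719 CPM in mutants 1, 2 and 3 stood against 205 to 210 CPM in controls. Cdk6 alone gave 978 CPM of the sum in mutant 1. Gata2 and Cdk6 lay above every control in all mutants, and Mecom, Flt3 and Hlf lay below. Replication gene sums were 4908 to 5420 CPM in the same animals. Among the role sums, nucleotide supply was at 881, 1297 and 805 CPM in mutants 1, 2 and 3, and the Mcm2-7 core at 1580, 1530 and 1559 CPM. A relation between progenitor markers and replication genes was not tested.

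Lymphocyte markers moved the other way. All 10 B-cell markers fell (median log2 -6.86, smallest p for Ebf1 at log2 -6.59 ± 0.25, adjusted p = 0.000479 by edgeR), and 4 of 10 T-cell markers fell, with Lef1 having the smallest p (log2 -6.12 ± 0.38, adjusted p = 0.00153 by edgeR). T-cell sums were 38.6, 308 and 30.4 CPM in mutants and 808 to 1006 CPM in controls. Of the 308 CPM in mutant 2, Cd4 alone gave 197 CPM, above its 85.0 to 107 CPM in controls, and it stood at 5.20 and 6.59 CPM in mutants 1 and 3. Of 8 markers of the germinal centre, where B cells divide in a normal spleen, 3 fell, including Rgs13, which had 0 counts in all 3 mutants, and Bcl6, its master regulator (log2 -2.59 ± 0.46, adjusted p = 0.0233 by edgeR). The sums of the 8 markers were 27.5, 60.0 and 29.8 CPM in mutants and 102 to 141 CPM in controls. Bcl6 alone gave 76.9, 69.7 and 88.8 CPM of the sums in controls 1, 2 and 3. S1pr2 had a positive fold change (log2 0.571 ± 0.365, adjusted p = 0.331 by edgeR), and the libraries of Mybl1 overlapped. The part of any of these cell types in the replication gene levels was not tested.

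**Figure D5:**
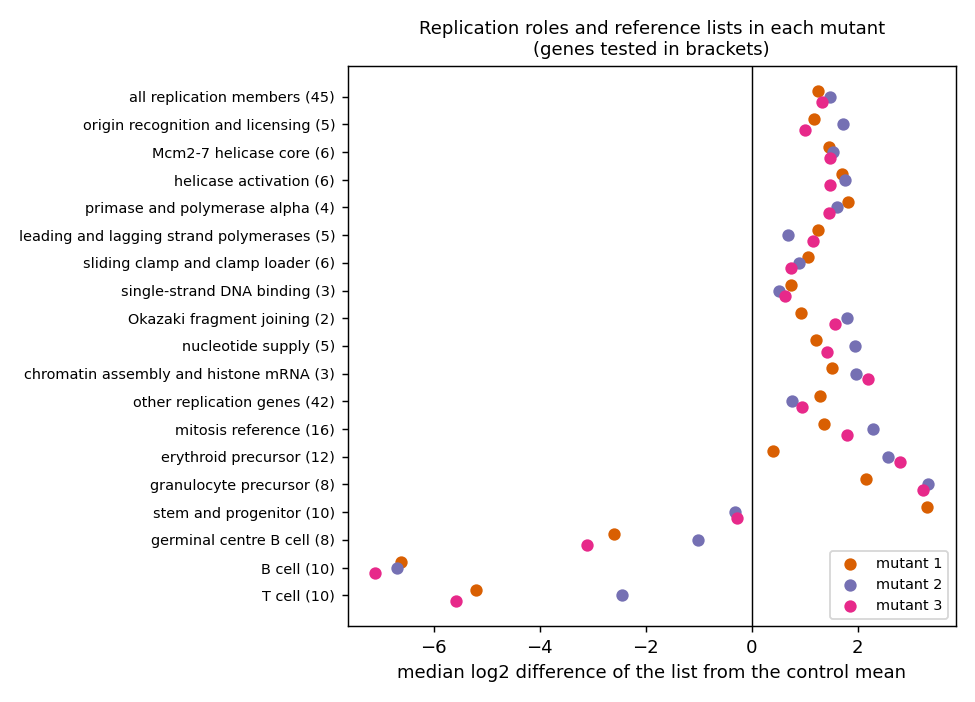
Median log2 difference from the control mean (x axis) of each replication role and each reference list (y axis, genes tested in brackets), with 1 point per mutant. The replication roles lie between 0.51 and 2.19 in all 3 mutants, the stem and progenitor list runs from -0.33 to 3.31, and the B-cell, T-cell and germinal centre lists lie below 0.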

How the data were processed

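Stranded poly-A libraries started from 50 ng of RNA per spleen piece, per the labels' protocols. The authors deposited whole-number counts per Ensembl gene without normalization. Per the submitters' processing notes, STAR 2.5.3a, limma, mm10 and GRCm38 were used, in roles left unstated there. Annotation release and the strand setting of the counting are not stated in any source used.

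Genotype labels gave the groups, and replicate numbers follow accession order and pair nothing. Of 31771 identifiers, 31669 matched a symbol. The main test was edgeR 4.0.16 (R 4.3.3) with TMM factors, filterByExpr by group and robust quasi-likelihood fits, with p adjusted by Benjamini-Hochberg over 19573 genes (threshold 0.05). The SE is the absolute log2 fold change over the root of F. CPM used library totals alone, and log2 CPM for list medians used a prior count of 2. Positions and exon lengths (protein-coding transcripts) came from GENCODE M21. The procedure was tested on simulated counts. Alternatives were other scalings, no filter, DESeq2 1.42.0, limma-voom (limma 3.58.1) with or without weights, haemoglobin and immunoglobulin genes left out, and each library left out. Members and lists were chosen with earlier results of these data known. All members are named; values in every library are given for the 2 smallest p and the least-changed uncalled gene of each role, the 3 largest and 3 smallest changes, and the helicase core. Other lists name the smallest p. Cdc6, Dut, Rfc2 and further genes were named after their values were seen.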

Additional observations from a re-analysis of the deposited data

How the results depend on the processing

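Among fits with more than 1 mutant, called members numbered 27 to 37, with these exceptions. They numbered 0 to 1 with a control left out by edgeR (0 to 35 over all single libraries left out). By limma-voom with separate group variances, an alternative chosen after seeing the data, they numbered 15. The 37 came from DESeq2, which called 14.5% of all genes higher, against 5.08% in the main test. Apart from the fits with a control left out, that share was not counted for the remaining alternatives, so their counts stand without it. No paired analysis was possible because the labels share no replicate numbers between groups. The member median was 1.33 by limma-voom with sample weights, 1.29 without mutants 1 and 2, 1.33 by DESeq2 without control 3, and 1.30 to 1.56 with single libraries left out, against 1.45. Upper-quartile scaling moved the median of all genes from 0.10 to 0.00, and 28 members then passed. Mcm4, Pold2, Pcna and Rpa2 lost their call under that scaling. Mcm4, Gins4, Pola2 and Rpa2 lost theirs with no filter on low counts. The fit without mutants 1 and 2 leaves 1 mutant assumed to vary like the controls, so only its fold changes are given. Other replication genes called higher numbered 13 with separate group variances and 0 to 27 with single libraries left out, and those lower 0 to 3. Of all genes, 0.0195% to 0.0392% were called higher with a control left out by edgeR. That share was not counted with a mutant left out or with separate group variances. Rfc2 turned to log2 -0.014 with sample weights, -0.39 without mutant 1 and -0.50 without mutants 1 and 2, over -0.39 to 0.92 with single libraries left out, and no other member changed sign. The share difference of 0.296 percentage points ranged from 0.278 to 0.312. The cause of these shifts was not tested. Among mutants Rfc2, Rrm2, Orc1 and Cdc6 varied by over 50%, which limits their precision more than depth does.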
